A study of Homo sapiens with 29 samples.

Results

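The small heat shock genes CRYAB, HSPB1, HSPB2, HSPB3, HSPB6, HSPB7, HSPB8 and HSPB11 and the cochaperone gene BAG3 were followed through a schedule of BRAF inhibition in WM239A cells, a metastatic melanoma line. They were taken by symbol and are 9 of the 60675 genes in the table of read counts. Of the 9, 6 had enough counts to be tested, among 20494 tested genes. HSPB2, HSPB6 and HSPB7 did not, and are given as raw counts.

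All groups are WM239A cells. LGX818, an inhibitor of the BRAF kinase also known as encorafenib, was given at 500 nM to cells made to overexpress BRAF-V600E, a mutant that keeps MAP kinase signalling on in many melanomas. They were sampled after 20 hours and after 7 days (week 1), and cells kept on the drug were sampled at 14, 21 and 28 days (weeks 2, 3 and 4, continuous). In an intermittent arm, the first 7 days on drug were followed by 7 days in DMSO (week 2, off drug), 7 days on drug again (week 3, back on drug) and 7 more days in DMSO (week 4, off drug). The references were V600E cells without drug and vector cells without drug, both labelled as given no drug and neither as given DMSO. Each group has 3 libraries, except week 4 continuous with 2. The labels give neither the promoter of the BRAF-V600E construct nor whether a line is 1 clone, and no never-drugged culture of the later weeks is among the groups, so in comparisons with untreated V600E cells time in culture and earlier drug cannot be told apart. They do not say that replicates were separate cultures, so p-values measure the spread between libraries, which may be technical.

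Libraries held 22934039 to 35804978 counts, and mitochondrial genes took 8.57% to 20.7% of them, with 17.6% to 20.7% at 20 hours and 9.43% to 11.1% at week 1, against 14.9% to 16.4% in V600E cells. BRAF itself was at 889 to 903 CPM (read counts scaled to library size) in V600E cells, against 37.6 to 43.2 CPM in vector cells, and at 3170 to 3290 CPM at week 2 off drug. All 8 melanocyte lineage markers had counts in every group. Their summed level was 8090 to 8250 CPM at 20 hours and 831 to 897 CPM at week 1, against 2370 to 2480 CPM in V600E cells. The markers did not all move together. At week 1 PMEL averaged 89.9 CPM against 647 CPM in V600E cells, and TYR, DCT, MLANA and MITF were lower too. SOX10 was at 417 CPM against 478 CPM, S100B at 159 CPM against 165 CPM and TYRP1 at 9.84 CPM against 0.169 CPM. Replicate 3 of week 2 continuous and replicate 1 of week 3 back on drug stood apart from both other libraries of their groups, and results that change without them are marked.

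Small heat shock proteins are chaperones that use no ATP. They share an alpha-crystallin domain, gather in oligomers, bind proteins that begin to unfold and hold them until HSP70 machines refold them or degradation removes them. BAG3 binds HSP70 through its BAG domain and binds HSPB8 and other small heat shock proteins, and this complex passes damaged cytoskeletal clients to selective autophagy. Muscle, the lens and stressed cells are the textbook sites of high expression, and heat shock factor HSF1 switches on several of the genes by binding inverted repeats of GAA in their promoters.

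Because heat shock factor repeats are the best known control of the family, promoter sequence of the tested members is shown for the 4 that have an entry in the RefSeq table (build GRCh38.p14). The window read was the 250 bases before the RefSeq start, and 6 of the 9 members had one. Only the stretch outside the GENCODE 29 gene is printed for HSPB1, HSPB3 and BAG3. For HSPB8, whose window lies within that gene, 30 bases around a match are given. Capitals mark a pair of facing repeat units (GAANNTTC or TTCNNGAA, each its own reverse complement, so both strands are covered), and lower case is all other sequence.
HSPB1, chr7:76302423-76302543, plus strand: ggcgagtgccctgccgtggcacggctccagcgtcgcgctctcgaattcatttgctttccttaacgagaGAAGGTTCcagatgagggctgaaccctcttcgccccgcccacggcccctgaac
HSPB3, chr5:54455449-54455600, plus strand: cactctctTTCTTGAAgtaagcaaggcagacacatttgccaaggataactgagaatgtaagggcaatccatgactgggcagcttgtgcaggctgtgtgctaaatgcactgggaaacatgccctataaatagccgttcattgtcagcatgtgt
HSPB8, chr12:119178832-119178861, plus strand: tcatcacctccGAATATTCctgtgacagga
BAG3, chr10:119651130-119651369, plus strand: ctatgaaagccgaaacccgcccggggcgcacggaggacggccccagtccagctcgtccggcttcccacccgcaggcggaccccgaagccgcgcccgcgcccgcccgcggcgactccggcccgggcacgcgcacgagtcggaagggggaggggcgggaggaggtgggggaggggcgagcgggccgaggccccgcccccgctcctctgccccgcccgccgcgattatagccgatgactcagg

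The pair of units in HSPB1 lies 182 to 175 bases before the start, that in HSPB3 242 to 235 bases before it and that in HSPB8 88 to 81 bases before it. None of the 6 windows held, on either strand, the repeat of 3 units, which is GAANNTTC followed by NNGAA and so contains both pairs, and which 0.441% of 35116 RefSeq promoter windows of that length hold. The window of HSPB6, a member not tested, held a pair of each form, and those of HSPB7 and BAG3 held neither. The 2-unit forms are more common than the repeat of 3 units: 5.78% of the windows hold GAANNTTC and 6.62% hold TTCNNGAA. The letters were matched without mismatches, and a match describes the sequence and not binding.

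After the first week of drug CRYAB, HSPB3, HSPB8 and HSPB1 were higher than in untreated V600E cells and BAG3 was lower. At the first withdrawal CRYAB, HSPB3 and HSPB1 fell while BAG3 and HSPB8 rose, and at the second HSPB8 did not rise. Every adjusted p given here is from edgeR's quasi-likelihood test with Benjamini-Hochberg adjustment over all tested genes, with 0.05 as the threshold, and every change is on the log2 scale with its standard error unless a fold is named. At 20 hours against V600E cells 3 members rose and 2 fell, where 28.4% of all tested genes rose and 25.2% fell. At week 1 against V600E cells 4 members rose and 1 fell (27.5% of all genes rose and 26.7% fell), and against 20 hours 5 rose and none fell (28.6% and 29.1%). Week 4 continuous had 2 members lower than week 1 and none higher (19.9% of all genes lower and 21.1% higher). So many genes changed that a call alone sets no member apart, and the sizes carry the description.

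Around the withdrawals the members divided. At week 2 off drug 2 members rose and 3 fell against week 1 (27.7% of all genes rose and 26.8% fell), and likewise 2 rose and 3 fell against week 2 continuous (27.3% and 27.9%). In both, CRYAB, HSPB1 and HSPB3 fell and HSPB8 and BAG3 rose. Against V600E cells, week 2 off drug had 4 members higher and 1 lower (31.2% and 28.8%). With drug back at week 3, 4 rose and 2 fell against week 2 off drug (27.8% and 28.5%), the falls being HSPB8 and BAG3. BAG3 was the member that rose at the second withdrawal. The second withdrawal had 1 rise and 5 falls against week 3 back on drug (23.1% and 22.3%), and 4 falls and no rise against the first off-drug week (14.4% of all genes lower and 14.6% higher). Week 3 back on drug against week 3 continuous had CRYAB alone past the threshold (14% of all genes higher and 14.3% lower), and V600E against vector cells had BAG3 higher and HSPB8 lower (7.04% and 9.92%).

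**Figure D1:**
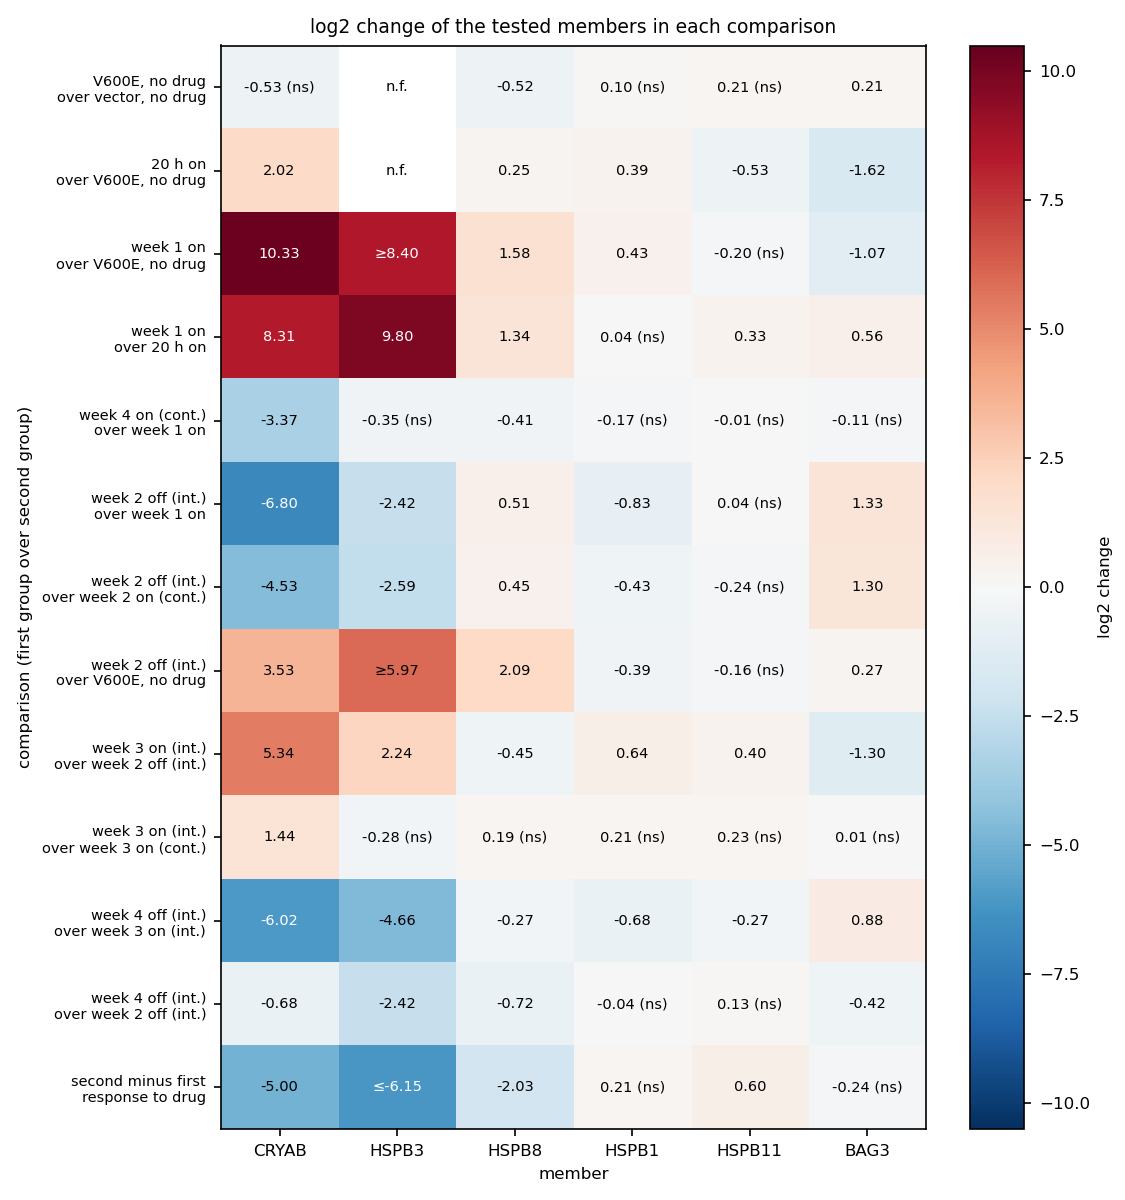
Log2 change (colour and number) of the 6 tested members (columns) in 13 comparisons (rows, first group over second); ns marks an adjusted p of 0.05 or more, n.f. that both groups were at or under 3 counts, ≥ or ≤ a bound set by 0 counts in V600E cells, and the HSPB3 value of week 1 over 20 hours is a ratio of counts. CRYAB ran from 10.33 at week 1 over V600E cells to -6.8 at week 2 off drug over week 1, while BAG3 had the opposite sign in both, at -1.07 and 1.33.

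CRYAB, the alpha-B crystallin of lens and muscle, reached the highest level of the members. At week 1 it stood at 2630, 2840 and 2550 CPM, against 1.8, 2.79 and 1.51 CPM in V600E cells without drug. Every week 1 library was far above every untreated one. The change was 10.33 ± 0.18 on the log2 scale (SE), a 1290-fold rise (adjusted p = 2.93e-28). Per kilobase of exon, CRYAB was at 881 CPM per kb at week 1 and was rank 23 of 19693 protein-coding genes, while in V600E cells it was at 0.67 CPM per kb and rank 10717.

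Little of this rise was present on the first day. CRYAB was at 8.74, 8.96 and 7.55 CPM after 20 hours of drug, 4.06-fold over V600E cells (log2 change 2.02 ± 0.18, adjusted p = 2.99e-11). Week 1 was a further 318-fold above 20 hours (8.31 ± 0.16, adjusted p = 2.71e-27). Without drug, the log2 change between V600E and vector cells (2.94, 3.32 and 2.68 CPM in vector cells) was -0.53 ± 0.2 with an adjusted p of 0.0649. That last comparison passed the threshold without V600E replicate 2 (-0.84, adjusted p = 0.00612), by DESeq2 (0.0289), without a count filter (0.0037) and without the 2 libraries that stood apart (0.0343).

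The CRYAB level was lower in the later weeks of unbroken drug. It was at 491, 478 and 696 CPM at week 2, 321, 388 and 363 CPM at week 3, and 251 and 265 CPM at week 4. Week 4 was 10.4-fold below week 1 (log2 change -3.37 ± 0.15, adjusted p = 8.91e-18), and both of its libraries were still above every library taken off drug.

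CRYAB was lower again after drug withdrawal. In the first week off drug it was at 26.9, 24.3 and 20.9 CPM, 111-fold below week 1 (log2 change -6.8 ± 0.15, adjusted p = 1.25e-25) and 23.1-fold below week 2 continuous (-4.53 ± 0.13, adjusted p = 1.81e-22, and -4.35 without the libraries that stood apart). That was still 11.6-fold above V600E cells never given drug (3.53 ± 0.16, adjusted p = 6.43e-18), so the off-drug libraries lay without overlap above the untreated and 20 hour libraries and below all those on drug for a week or more. With drug back at week 3, CRYAB was at 992, 988 and 930 CPM, 40.5-fold over week 2 off drug (5.34 ± 0.14, adjusted p = 9.27e-24). Those libraries were 2.71-fold above week 3 continuous (1.44 ± 0.12, adjusted p = 3.51e-11), all 3 exceeded all 3 continuous ones, and the change was again 1.44 without the library that stood apart. The second withdrawal brought it to 15.5, 14.6 and 14.7 CPM, 64.9-fold below week 3 back on drug (-6.02 ± 0.14, adjusted p = 3.21e-24) and 1.6-fold below the first off-drug week (-0.68 ± 0.13, adjusted p = 0.000113).

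**Figure D2:**
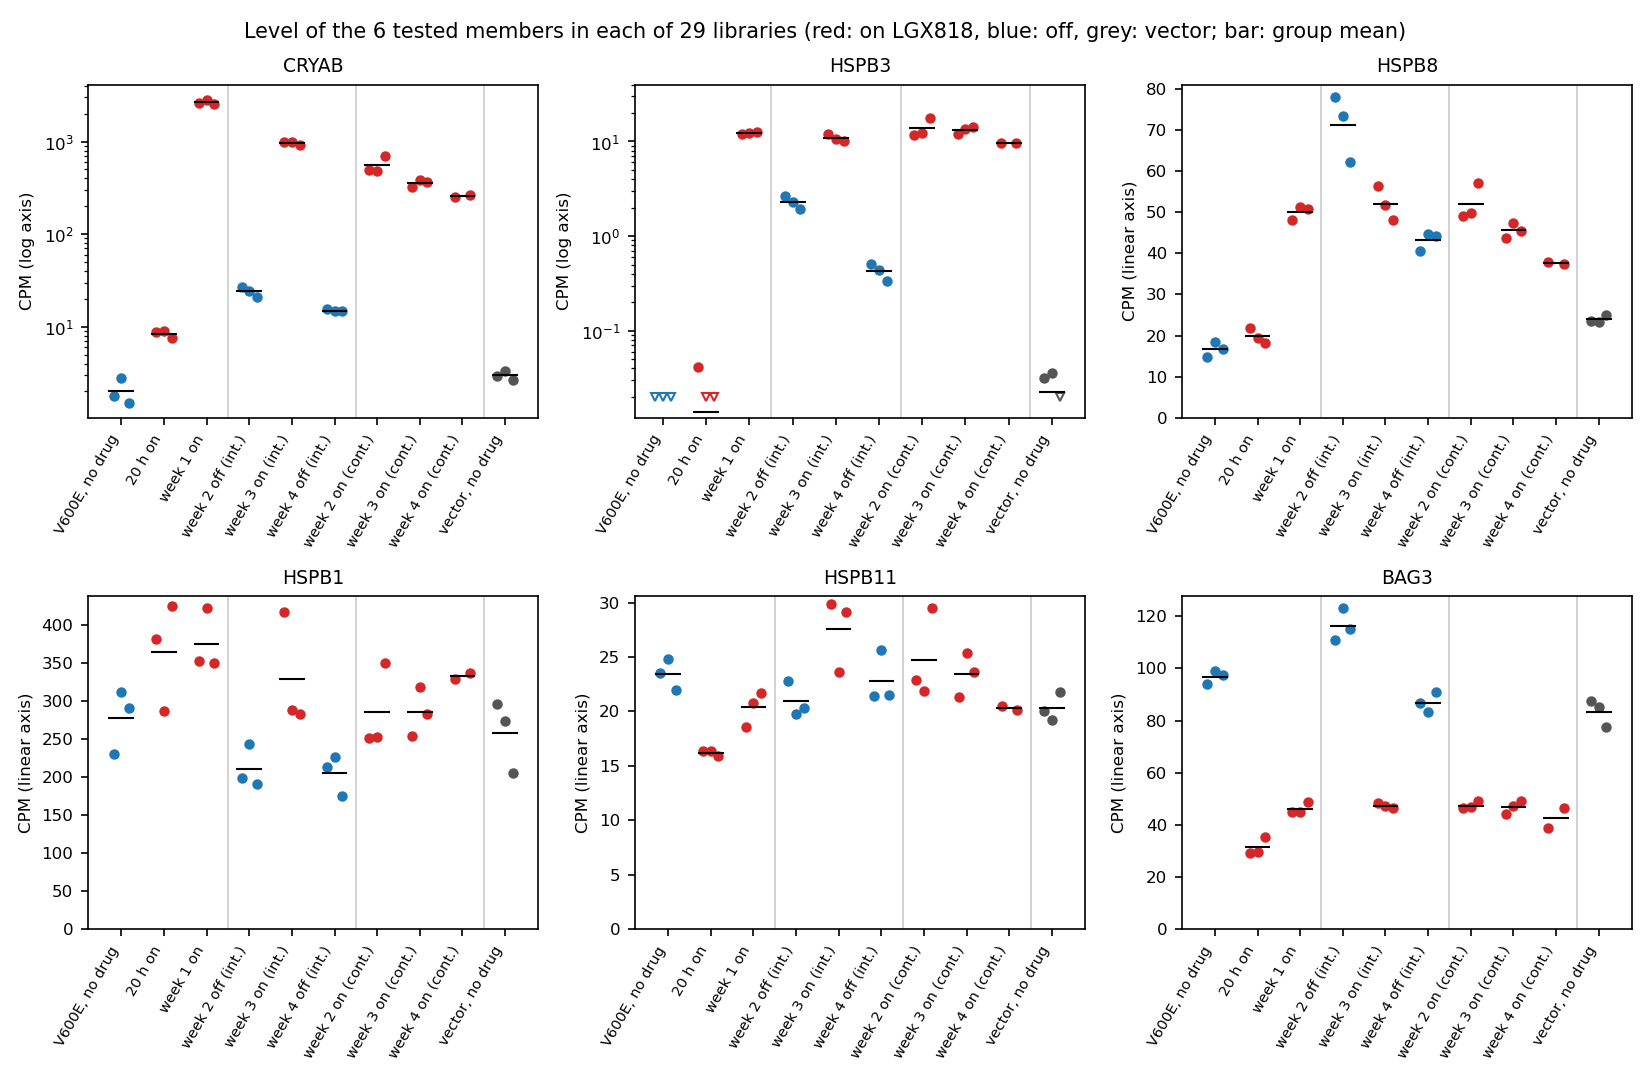
Level in CPM (y axis, log for CRYAB and HSPB3, linear from 0 for the others) of the 6 tested members in each of 29 libraries by group (x axis; int., intermittent arm; cont., continuous arm); points are libraries, bars are group means, red is on drug, blue off drug, grey vector, and open triangles mark libraries with 0 counts. CRYAB was at 2550 to 2840 CPM at week 1 and at 14.6 to 15.5 CPM at week 4 off drug, and BAG3 was lower in every library on drug (29.1 to 49.3 CPM) than in every library off drug (77.5 to 123 CPM).

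HSPB3, known from muscle, where its protein forms a complex with that of HSPB2, was all but unread before a week of drug. It had 0 counts in all 3 V600E libraries, 2 counts in vector cells and 1 count after 20 hours of drug. At week 1 it was at 12.1, 12.3 and 12.5 CPM (313, 428 and 380 counts), against 0 CPM in V600E cells. That is 1121 counts against 1 count after 20 hours, 892-fold more per library size, and counting error alone gives that ratio a 95% interval of 160 to 35300. Against the untreated cells it is at least 338-fold (adjusted p = 1.5e-19), with their 0 counts set to a floor of 3 over the group.

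Under unbroken drug HSPB3 lay between 9.6 and 17.5 CPM in every library of weeks 2 to 4. It was at 11.8, 12.3 and 17.5 CPM at week 2, 12, 13.7 and 14.1 CPM at week 3, and 9.73 and 9.6 CPM at week 4, and the log2 change of week 4 continuous over week 1 was -0.35 ± 0.15 (95% interval -0.67 to -0.02, adjusted p = 0.0737). That p was 0.00504 with the compared groups fitted alone and 0.0218 without the 2 libraries that stood apart.

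HSPB3 fell at each of the 2 withdrawals and rose between them. Week 2 off drug had 2.68, 2.32 and 1.92 CPM, 5.36-fold below week 1 (log2 change -2.42 ± 0.16, adjusted p = 2e-13), 6.04-fold below week 2 continuous (-2.59 ± 0.16, adjusted p = 4.29e-14) and at least 62.6-fold above V600E cells (184 counts against 0, adjusted p = 7.84e-14). Week 3 back on drug had 11.9, 10.6 and 10.1 CPM, 4.73-fold over week 2 off drug (2.24 ± 0.16, adjusted p = 1.15e-12). Week 4 off drug had 0.511, 0.434 and 0.334 CPM, 25.3-fold below week 3 back on drug (-4.66 ± 0.2, adjusted p = 2.4e-17). The second off-drug week was thus 5.34-fold below the first (-2.42 ± 0.24, adjusted p = 8.5e-09), and no library of one reached the range of the other. Between week 3 back on drug and week 3 continuous the log2 change was -0.28 ± 0.14 (adjusted p = 0.124), and -0.34 (adjusted p = 0.0536) without the library that stood apart. Its values in V600E and vector cells and after 20 hours were all at or under the floor, so no fold is given among them.

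Muscle, lens and fibroblast genes were read beside CRYAB and HSPB3, which are known from muscle and, for CRYAB, the lens. Of 8 striated muscle markers 5 had counts at week 1 and 4 in V600E cells, and MYOG and MYOD1, the muscle-determining factors, had none in either. The summed level of the list was 18.7 to 21.6 CPM at week 1, against 15.2 to 18.3 CPM in V600E cells. TNNT1 made up most of it, averaging 16.3 CPM against 14.3 CPM, and was at 43.3 CPM at week 2 off drug. DES, at low levels, moved with drug. It averaged 0.958 CPM at week 1, against 0 CPM in V600E cells, 0.0119 CPM at week 2 off drug and 0.449 CPM at week 3 back on drug. All 6 smooth muscle markers had counts at week 1 and 5 in V600E cells, where CNN1 was at 0, and their sum was 172 to 188 CPM at week 1, against 120 to 125 CPM in V600E cells. That sum was higher off drug, at 320 to 348 CPM at week 2 and 373 to 406 CPM at week 4. SMTN made up most of it, averaging 310 CPM and 362 CPM there, against 129 CPM at week 1. The other smooth muscle markers averaged lower at week 2 off drug than at week 1. Among them TAGLN averaged 15.6 CPM at week 1, against 1.97 CPM in V600E cells. It was at 24.5 CPM at week 3 back on drug, against 2.44 CPM at week 2 off drug. Of 4 lens markers, CRYAA, CRYGD and CRYBB1 had 0 counts in both groups, and the sum was 2.22 to 3.2 CPM at week 1, against 9.54 to 11.7 CPM in V600E cells. The summed level of the fibroblast list moved with drug, mostly through COL1A1. The list had counts for 6 of 8 markers at week 1 and 7 of 8 in V600E cells. Its sum was 249 to 261 CPM at week 1, against 2.08 to 2.27 CPM in V600E cells, with COL1A1 at 224 CPM against 0.778 CPM and with THY1 and PDPN at 0 at week 1. The fibroblast sum was 2230 to 2470 CPM at week 4 continuous, where CRYAB was lower than at week 1. At week 2 off drug the sum was 22.5 to 26.8 CPM, with COL1A1 at 4.43 CPM and the other collagens and LUM also below week 1. PDGFRB was higher there, at 15.3 CPM against 3.43 CPM at week 1, as were DCN, THY1 and PDPN (at most 0.547 CPM). The part of these genes in the CRYAB and HSPB3 results was not tested. In bulk RNA, fewer cells of a type and less RNA per cell cannot be told apart.

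HSPB8, the small heat shock protein that pairs with BAG3, rose with drug and did not fall at the first withdrawal. Week 1 libraries were at 48.1, 51.3 and 50.9 CPM, against 14.7, 18.5 and 16.8 CPM in V600E cells, a 3-fold rise (log2 change 1.58 ± 0.09, adjusted p = 2.07e-15), and were 2.53-fold above 20 hours (1.34 ± 0.09, adjusted p = 9.57e-14). Week 2 off drug was higher still, at 77.9, 73.3 and 62.2 CPM. These 3 libraries were above all others of the study, 1.42-fold over week 1 (0.51 ± 0.09, adjusted p = 1.14e-05), 1.37-fold over week 2 continuous (0.45 ± 0.09, adjusted p = 5.52e-05) and 4.25-fold over V600E cells (2.09 ± 0.09, adjusted p = 2.69e-18).

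With drug back on, HSPB8 fell to 56.3, 51.8 and 48.2 CPM at week 3 (log2 change over week 2 off drug -0.45 ± 0.09, adjusted p = 5.78e-05). The second withdrawal did not repeat the first: week 4 off drug had 40.5, 44.8 and 44.2 CPM, below week 3 back on drug (-0.27 ± 0.09, adjusted p = 0.0113) and 1.65-fold below week 2 off drug (-0.72 ± 0.09, adjusted p = 1.43e-07). The smaller of these, against week 3, missed the threshold without week 3 replicate 1, one of the libraries that stood apart, and without week 4 off-drug replicate 1 (adjusted p = 0.0792 each time). Under continuous drug HSPB8 was at 49, 49.9 and 57 CPM at week 2, 43.8, 47.5 and 45.4 CPM at week 3 and 37.9 and 37.5 CPM at week 4, and week 4 was 1.33-fold below week 1 (-0.41 ± 0.1, adjusted p = 0.00119). Its 20 hour libraries, at 21.9, 19.3 and 18.3 CPM, overlapped those of V600E cells by 1 library, and the log2 change of 0.25 ± 0.1 (adjusted p = 0.0305) missed the threshold without a count filter (0.124), with the compared groups alone (0.113), without the libraries that stood apart (0.0927) and without 20 hour replicate 1 (0.253) or V600E replicate 1 (0.264) or replicate 3 (0.0946). Without drug, HSPB8 was 1.43-fold lower in V600E cells than in vector cells at 23.6, 23.4 and 24.9 CPM (-0.52 ± 0.09, adjusted p = 0.000123).

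BAG3, the cochaperone that links small heat shock proteins to HSP70, was lower in every library on drug. After 20 hours of drug it was at 29.1, 29.5 and 35.5 CPM, against 94, 98.8 and 97.3 CPM in V600E cells, 3.08-fold lower (log2 change -1.62 ± 0.08, adjusted p = 3.41e-17). Week 1 libraries were at 44.9, 45.1 and 48.6 CPM, 2.09-fold below V600E cells (-1.07 ± 0.08, adjusted p = 3.79e-13) and 1.47-fold above 20 hours (0.56 ± 0.08, adjusted p = 4.17e-07). All drugged libraries were below all undrugged ones, whatever the week.

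BAG3 rose with each withdrawal. Week 2 off drug had 111, 123 and 115 CPM, 2.52-fold over week 1 (log2 change 1.33 ± 0.08, adjusted p = 2.36e-15) and 2.46-fold over week 2 continuous (1.3 ± 0.08, adjusted p = 5.09e-15). These libraries were also above those of V600E cells (0.27 ± 0.08, adjusted p = 0.00294), a difference that missed the threshold without week 2 off-drug replicate 2 (0.17, adjusted p = 0.0813). Week 3 back on drug had 48.3, 47.1 and 46.3 CPM, 2.47-fold below week 2 off drug (-1.3 ± 0.08, adjusted p = 4.36e-15), and its log2 change over week 3 continuous (44.2, 47.1 and 49.3 CPM) was 0.01 with a 95% interval of -0.15 to 0.17. Week 4 off drug had 86.6, 83.1 and 90.9 CPM, 1.84-fold over week 3 back on drug (0.88 ± 0.08, adjusted p = 4.86e-11) and 1.34-fold below the first off-drug week (-0.42 ± 0.08, adjusted p = 5.88e-05).

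Under continuous drug BAG3 stayed below every undrugged library. Week 2 continuous had 46.3, 46.7 and 49.3 CPM and week 4 continuous 38.9 and 46.5 CPM, and the log2 change of week 4 over week 1 was -0.11 (95% interval -0.3 to 0.07, adjusted p = 0.319). BAG3 was slightly higher in V600E than in vector cells (87.5, 85 and 77.5 CPM in vector cells), by 0.21 ± 0.08 (adjusted p = 0.0495), and that call was lost without a count filter (0.156) and without any 1 of 5 libraries, with adjusted p-values of 0.0684 to 0.195.

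HSPB1, the most widely expressed member, which caps actin filaments and is phosphorylated under stress, was high throughout and moved little. Its group levels ran from 125 to 229 CPM per kb of exon, ranks 72 to 215 of the protein-coding genes, so CRYAB exceeded it per kb at week 1, at week 2 continuous (183 against 174 CPM per kb) and at week 3 back on drug (320 against 201 CPM per kb). Week 1 libraries had 352, 422 and 349 CPM, against 230, 312 and 290 CPM in V600E cells (log2 change 0.43 ± 0.16, adjusted p = 0.0235). That call was lost without V600E replicate 1 (adjusted p = 0.12) or week 1 replicate 2 (0.119). At 20 hours the libraries, at 381, 286 and 425 CPM, overlapped those of V600E cells (0.39 ± 0.16, adjusted p = 0.04), and leaving out either of 2 libraries on each side raised the adjusted p to between 0.0763 and 0.248.

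The steadier HSPB1 changes were those of withdrawal and return. Week 2 off drug had 199, 243 and 191 CPM, 1.77-fold below week 1 (log2 change -0.83 ± 0.16, adjusted p = 6.85e-05). Week 3 back on drug had 416, 288 and 283 CPM, 1.56-fold over week 2 off drug (0.64 ± 0.16, adjusted p = 0.00118), with replicate 1, a library that stood apart, the highest of the 3 and a log2 change of 0.46 (adjusted p = 0.00878) without it. Week 4 off drug had 213, 226 and 175 CPM, 1.61-fold below week 3 back on drug (-0.68 ± 0.16, adjusted p = 0.000783). No off-drug library of the intermittent arm reached a library of week 1 or of week 3 back on drug. Week 2 off drug was also below week 2 continuous (251, 253 and 350 CPM; -0.43 ± 0.16, adjusted p = 0.0239), a call that was lost without week 2 continuous replicate 3, which stood apart (-0.27, adjusted p = 0.178), and without week 2 off-drug replicate 1 (0.0792) or replicate 3 (0.0866). It was below V600E cells too (-0.39 ± 0.16, adjusted p = 0.0362), a call that DESeq2 (0.059) and RLE size factors (0.0616) did not make, nor leaving out any 1 of 4 libraries (0.0782 to 0.161). HSPB1 was at 254, 318 and 282 CPM at week 3 continuous and 328 and 337 CPM at week 4 continuous, and vector cells had 296, 274 and 205 CPM.

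HSPB11, also called IFT25, is counted in the family by its name but is a subunit of the transport complex of cilia. It varied least, between 15.9 and 29.9 CPM over all 29 libraries. After 20 hours of drug it was at 16.4, 16.4 and 15.9 CPM, against 23.5, 24.8 and 22 CPM in V600E cells (log2 change -0.53 ± 0.11, adjusted p = 0.000124), and every drugged library was below every untreated one. At week 1 it was at 18.6, 20.8 and 21.7 CPM, above 20 hours (0.33 ± 0.11, adjusted p = 0.0105). Its log2 change over V600E cells was -0.2 ± 0.11 (adjusted p = 0.112). That comparison passed the threshold without the 2 libraries that stood apart (-0.22, adjusted p = 0.0392) and with the compared groups alone (0.0436). Week 3 back on drug had 29.9, 23.6 and 29.1 CPM, against 22.8, 19.8 and 20.3 CPM at week 2 off drug (0.4 ± 0.11, adjusted p = 0.002). Week 4 off drug, at 21.4, 25.6 and 21.5 CPM, was below week 3 back on drug (-0.27 ± 0.1, adjusted p = 0.0355), a call lost without either of 2 libraries of each group (0.134 to 0.173), without both libraries that stood apart (0.0935) without a count filter (0.052) and with the compared groups alone (0.0788). Under continuous drug HSPB11 was at 22.9, 21.9 and 29.5 CPM at week 2, 21.3, 25.4 and 23.6 CPM at week 3 and 20.5 and 20.1 CPM at week 4, and vector cells had 20, 19.2 and 21.8 CPM, all within the range of the other groups.

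HSPB2, HSPB6 and HSPB7 are heart and muscle members of the family and were hardly read in these cells. HSPB2 had 0 to 7 counts per library, HSPB6 had 1 to 14 and HSPB7 had 0 to 7. HSPB2 matters for reading CRYAB, because the pair lie head to head on chromosome 11 and share 626 exon bases on opposite strands in GENCODE 29. Whether reads were counted by strand is not given in the sources used here, so the genes' own reads cannot be told apart there, but HSPB2 was given at most 7 counts where CRYAB was given up to 98309. HSPB7 had 10 counts at week 2 off drug against 0 in V600E cells, at least 3.4-fold with the floor of 3 counts, and it had 1 or 2 counts in every library of 20 hours and of week 1. HSPB2 had 11 counts at week 2 off drug, 11.2 times the single count of V600E cells per library size (95% interval from counting error 1.63 to 484). In a fit with no count filter, the adjusted p-values of these differences were 0.0311 for HSPB7 and 0.0635 for HSPB2. Of the 10 HSPB7 counts, 7 came from 1 library. HSPB6 had 5 counts after 20 hours of drug, against 17 in V600E cells, 0.334 times per library size (95% interval from counting error 0.0964 to 0.943), with an adjusted p of 0.229 in that unfiltered fit.

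**Figure D3:**
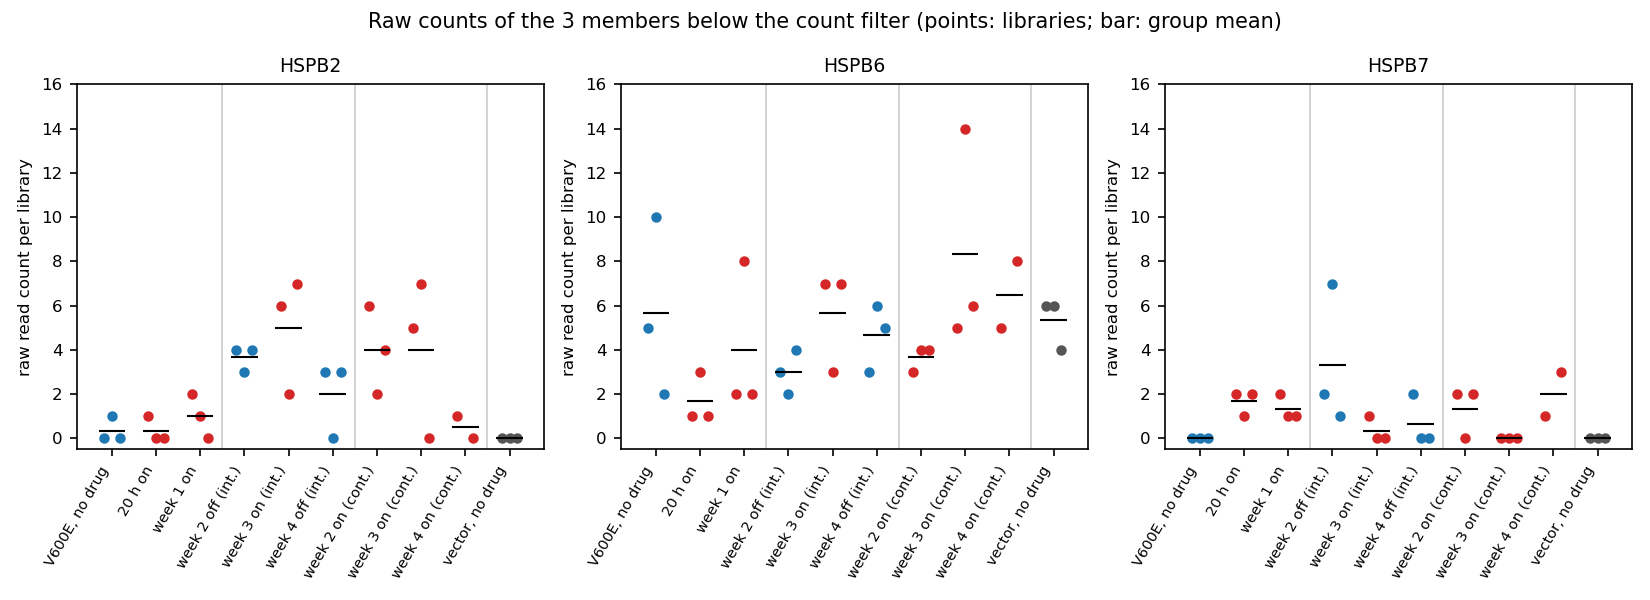
Raw read counts per library (y axis) of HSPB2, HSPB6 and HSPB7 by group (x axis, abbreviated and coloured as for the tested members); points are libraries and bars are group means. No library exceeded 14 counts, and HSPB7 had 0 counts in all V600E and vector libraries.

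By GENCODE 29 on GRCh38, CRYAB lies on the minus strand of chromosome 11 from 111908565 to 111923722, with HSPB2 on the plus strand from 111912242 to 111914093. HSPB1 is on chromosome 7 from 76302544 to 76304295, HSPB3 on chromosome 5 from 54455601 to 54456384, HSPB8 on chromosome 12 from 119178642 to 119221131 and BAG3 on chromosome 10 from 119651370 to 119677819, all on the plus strand. On minus strands lie HSPB6 on chromosome 19 from 35754569 to 35758079, and HSPB7 from 16014028 to 16019594 and HSPB11 from 53916574 to 53945929, far apart on chromosome 1. Only CRYAB and HSPB2 of the 9 overlap. Counts were given per whole gene, so exons and untranslated ends cannot be told apart.

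The second exposure to drug was set against the first in 1 test, as the change of week 3 back on drug over week 2 off drug minus that of week 1 over V600E cells. CRYAB rose less the second time, with a difference of -5 ± 0.2 on the log2 scale (adjusted p = 7.5e-19). Its mean was 970 CPM after the second week on drug, against 24 CPM before it, and 2670 CPM after the first, against 2.03 CPM before it. HSPB3 also rose less: its first response was at least 338-fold and its second 4.77-fold by counts, so the first exceeded the second at least 70.9-fold. For HSPB8 the direction turned, with a rise the first time and a fall the second (difference -2.03 ± 0.13, adjusted p = 2.16e-14). HSPB11 differed by 0.6 ± 0.15 (adjusted p = 0.00136). BAG3 fell both times, and the difference of -0.24 ± 0.11 had an adjusted p of 0.0711, against 0.0182 by DESeq2, 0.0309 with RLE size factors and 0.0258 with the compared groups alone. The HSPB1 difference was 0.21 with a 95% interval of -0.27 to 0.68 (adjusted p = 0.484). In this test 1 member was higher and 3 were lower, where 23.3% of all genes were higher and 25% lower.

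Across the 10 group means of log2 CPM, CRYAB correlated with HSPB3 (Pearson r = 0.94) and HSPB8 (0.7), and HSPB3 with HSPB8 (0.82). BAG3 ran against HSPB1 (-0.84) and CRYAB (-0.55) and had an r of 0.04 with its partner HSPB8. These values describe 10 points that share libraries and carry no test. Among named genes with at least 5 CPM in a group, those most like CRYAB included GLI1 (r = 0.985) and DUSP8 (0.983). GLI1, a transcription factor of the hedgehog pathway, averaged 41.2 CPM at week 1, against 1.94 CPM in V600E cells. Most like BAG3 were DLGAP1-AS1 (0.978), ETV4 (0.975) and IFNGR2 (0.972), and ETV4, a transcription factor whose transcription follows ERK activity, averaged 2.21 CPM at 20 hours, against 231 CPM in V600E cells. Most like HSPB8 were GPC1 (0.976), MGAT2 (0.973) and ARF4 (0.973), and most like HSPB1 were PGAP3 (0.97), RCOR3 (0.964) and FAM131A (0.962).

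The rest of the chaperone system was read from 66 listed genes, of which 61 were tested. At 20 hours 13 of the 61 rose and 35 fell against V600E cells, where 28.4% of all genes rose and 25.2% fell. After 20 hours of drug all 8 genes of HSP90 and its cochaperones were lower than in V600E cells, with a median log2 change of -1.01, where the median of all genes was 0.06. HSP90AB1, the constitutive cytosolic HSP90, averaged 685 CPM at 20 hours, against 1820 CPM in V600E cells (-1.41 ± 0.06, adjusted p = 2.79e-18). All 9 mitochondrial and secretory chaperones were lower as well (median -0.72), among them HSPD1, the mitochondrial HSP60, at 299 CPM against 840 CPM. Of 12 HSP70 and HSP110 genes 9 were lower and 2 higher (median -0.55), with the constitutive HSPA8 at 916 CPM against 2510 CPM and the strictly stress-inducible HSPA6 at 0.444 CPM against 5.36 CPM. Of 5 other BAG genes 3 were lower and none higher (median -0.23), with BAG2 at 11.9 CPM, against 24.8 CPM in V600E cells, and BAG5 at 35.6 CPM, against 47.7 CPM. The mitochondrial share of counts was highest in these 20 hour libraries, and its part in the chaperone results was not tested.

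Over the same 20 hours the HSP40 list went the other way for 4 of 8 genes, with 2 lower (median 0.37). Of all genes 28.4% rose and 25.2% fell. DNAJB5 averaged 16 CPM against 5.1 CPM and DNAJB4 25.6 CPM against 12.6 CPM in V600E cells, while DNAJB1, the HSP40 partner induced by heat, was at 75.6 CPM against 137 CPM. HSF4, the heat shock factor of the lens, was the 1 of 3 factors that changed, at 38.1 CPM against 13.8 CPM (log2 change 1.47 ± 0.11, adjusted p = 1.55e-12).

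By week 1 the medians of the large chaperone lists against V600E cells lay near 0 again, though some genes stayed well below those cells. HSPD1 averaged 385 CPM at week 1, against 840 CPM in V600E cells, and HSPA6 0.74 CPM against 5.36 CPM. Against 20 hours all 8 HSP90 genes rose (median 0.89, all genes -0.02), where 28.6% of all genes rose. Against V600E cells 4 of the 8 were lower and 1 higher (median -0.11), 5 of 9 mitochondrial and secretory genes were lower and 4 higher (median -0.22), and 5 of 12 HSP70 and HSP110 genes were lower and 4 higher (median -0.11). Of all genes, 26.7% were lower at week 1 than in V600E cells and 27.5% higher. HSPA1A averaged 59.8 CPM at week 1, against 23.1 CPM in V600E cells, and HSPA1B 37.3 CPM against 14.8 CPM. These 2 are near-identical copies, and how reads matching both were counted is not given in the sources used here. Each value is therefore uncertain. DNAJB4 averaged 84.1 CPM against 12.6 CPM (log2 change 2.74 ± 0.1, adjusted p = 4.96e-20). HSF4 was lower, at 8.36 CPM against 13.8 CPM, and HSF1 and HSF2 did not pass the test.

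The partners of BAG3 in chaperone-assisted autophagy moved against BAG3 itself at week 1. Of all tested genes 27.5% were higher at week 1 than in V600E cells and 26.7% lower. Of 10 tested partner genes 8 were higher and none lower (median 0.85, all genes 0). The leading ones were filamins, the actin crosslinkers that this pathway clears: FLNC averaged 113 CPM against 1.01 CPM (log2 change 6.82 ± 0.18, adjusted p = 6.36e-24) and FLNA 4080 CPM against 805 CPM (2.34 ± 0.1, adjusted p = 9.39e-19). Of 6 cytoskeleton client genes 4 were higher and 2 lower (median 1.08), with NES at 276 CPM against 120 CPM and LMNA at 813 CPM against 347 CPM.

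Against week 1, 27.7% of all genes rose at the first withdrawal and 26.8% fell. The partner list divided likewise. Against week 1, 4 of its 10 genes rose and 4 fell (median 0.04): SQSTM1, the autophagy receptor p62, averaged 4810 CPM at week 2 off drug, against 2200 CPM at week 1 (log2 change 1.13 ± 0.08, adjusted p = 2.27e-13), while FLNC averaged 37.7 CPM against 113 CPM (-1.58 ± 0.12, adjusted p = 1.83e-12). Against V600E cells 8 of the 10 were still higher and none lower (median 1.07), where 31.2% of all genes were higher and 28.8% lower. HSP90 genes rose for 5 of 8 against week 1 with none lower (median 0.22), and DNAJB9, a chaperone of the endoplasmic reticulum, averaged 116 CPM against 30.2 CPM (1.94 ± 0.08, adjusted p = 2.17e-18).

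With drug back at week 3, 16 of the 61 chaperone genes rose and 28 fell against week 2 off drug, where 27.8% of all genes rose and 28.5% fell. SQSTM1 fell to 1470 CPM, against 4810 CPM off drug, and FLNC averaged 118 CPM against 37.7 CPM. The second response of the partner list was lower than the first for 8 of 10 genes, where 25% of all genes were lower. The median of the difference was -1.32 (all genes -0.02). FLNC (-5.17 ± 0.22, adjusted p = 3.59e-18) and SQSTM1 (-2.87 ± 0.11, adjusted p = 4.7e-19) led the list. Under 3 more weeks of unbroken drug, 33 of the 61 were lower at week 4 than at week 1 and 6 higher, where 19.9% of all genes were lower and 21.1% higher. The lower ones included 7 of 8 HSP90 genes (median -0.42), while FLNC averaged 237 CPM against 113 CPM. At the second withdrawal 24 rose and 11 fell against week 3 back on drug, where 23.1% of all genes rose and 22.3% fell. In V600E cells without drug 8 were higher and 13 lower than in vector cells (7.04% and 9.92% of all genes), with the filamin FLNA at 805 CPM against 1380 CPM.

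**Figure D4:**
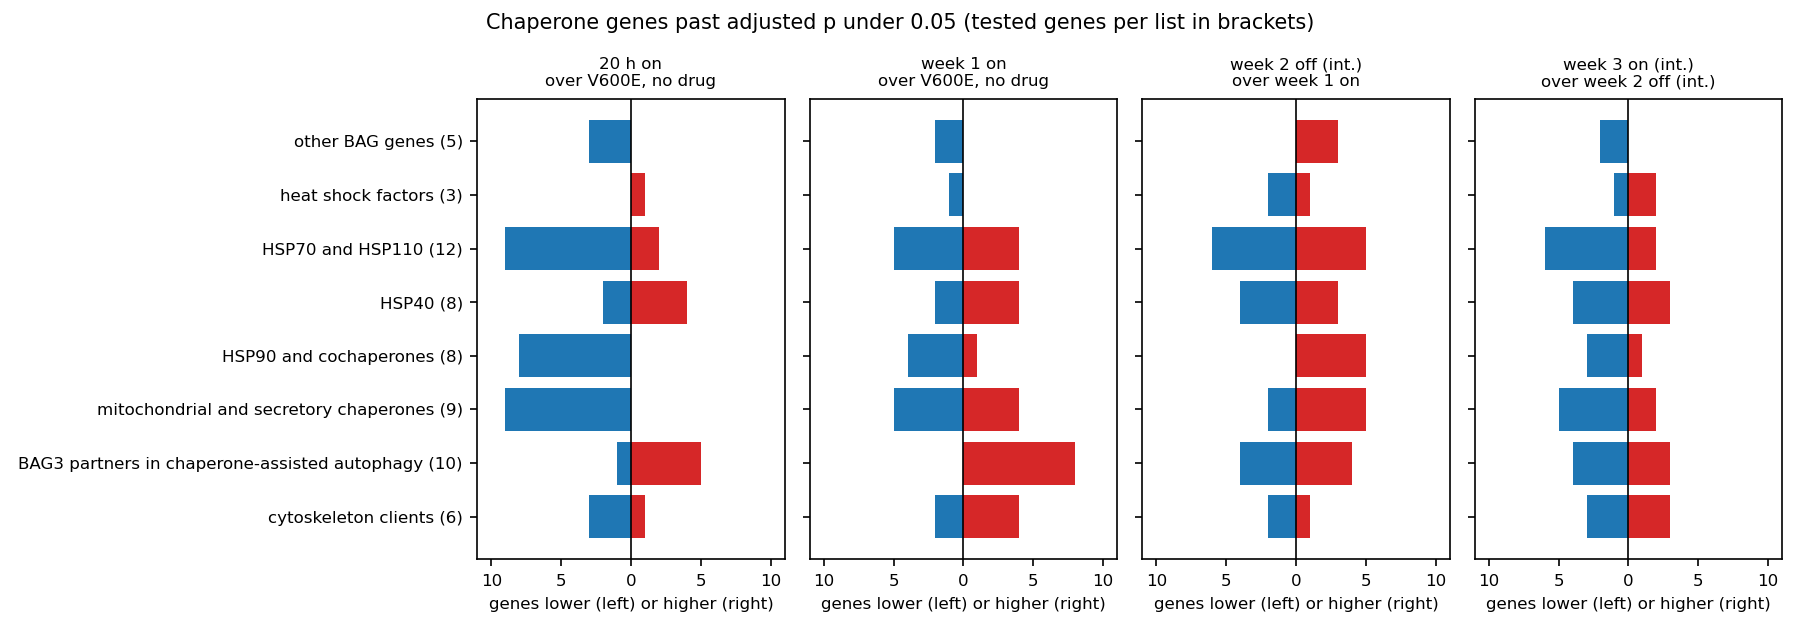
Number of genes (x axis) of each chaperone list (rows, tested genes in brackets) that were higher (red, right) or lower (blue, left) at an adjusted p under 0.05 in 4 comparisons. All 8 HSP90 genes and all 9 mitochondrial and secretory genes were lower after 20 hours, where 25.2% of all genes were lower. At week 1, 8 of 10 BAG3 partners were higher, where 27.5% of all genes were higher.

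Other small heat shock genes outside the member set gave no values to compare, since CRYAA, HSPB9 and ODF1 were all below the count filter.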

How the data were processed

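Polyadenylated RNA of 29 WM239A libraries in 10 groups was sequenced. The authors deposited 1 table of unnormalized whole-number counts, a row per gene and a column per library. Per the submitters' processing notes reads went through HTSeq 0.6.1, SAMtools 0.1.18, HISAT2 2.0.3 and Trimmomatic 0.32 (order not stated), on build GRCh38; annotation release and strand setting are not given in the sources used here. Samples were grouped by their titles. The table's headers call the week 3 intermittent libraries off drug where the sample titles say on drug; the titles were followed, matched by week, schedule and replicate number.

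Differences came from the quasi-likelihood test of edgeR 4.0.16 (R 4.3.3), fitted once to all 29 libraries by group, after filterByExpr (minimum count 10) and TMM scaling, with Benjamini-Hochberg adjustment over the 20494 tested genes of each of 13 comparisons at 0.05. CPM use TMM library sizes, and standard errors come from the estimate and its F statistic. A count of 0 over a group was set to a floor of 3 counts. On simulated counts of week 1 against V600E (19287 genes), the test found 50 of 67 genes at a 1.5-fold change. It found 65 of 67 at 2-fold and 66 of 66 at 4-fold, with 7 false calls. The changed genes were drawn only from those above a count limit, so the rates do not cover genes with few counts. In the data 11098 genes were called for that comparison, and the rate of false calls with that many changes was not tested. Each result was recomputed by DESeq2 1.42.0, by RLE scaling, unfiltered, within the compared groups, blocked by replicate number, without each library in turn, and without both libraries whose replicate chi-square per gene was over 20 against both others of their group.

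Members, chaperone lists and markers were chosen with earlier results of these data known. Any of the 9 members may be named in any comparison. Other chaperone genes are named only if among the 2 strongest called changes of their list in either direction, at 5 CPM or more in a compared group; likeness is Pearson's r over group means of log2 CPM (prior count 2), with the 3 most like genes taken for each of 4 members, and 1 of them is not reported here. COL1A1, THY1, PDPN, TAGLN and other marker genes are named as markers. Positions come from GENCODE 29, which matched 57055 identifiers, and promoters from RefSeq (GRCh38.p14).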

Additional observations from a re-analysis of the deposited data

Results flagged for a closer look

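In 4 members the response to the second exposure to drug (week 3 back on drug over week 2 off drug) differed from that to the first (week 1 over V600E cells) in the interaction test of edgeR out of 6 members tested, where 23.3% of all genes were higher and 25% lower in that test. The log2 difference was -5 for CRYAB (adjusted p = 7.5e-19) and -2.03 for HSPB8 (adjusted p = 2.16e-14), lower the second time in each. HSPB11 was higher the second time, by 0.6 (adjusted p = 0.00136). For HSPB3 the fitted difference was -9.23, a value that depends on the prior count because V600E cells had 0 counts, and by counts the first response was at least 70.9-fold the second.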

How the results depend on the processing

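The 6 tested members gave 78 results over 13 comparisons, recomputed 964 times in all under the alternatives: 907 kept direction and call, 38 lost the call, 19 gained it and none reversed. The calls that changed are those of small size: CRYAB, HSPB1, HSPB3, HSPB8 and BAG3 values given in the report, HSPB11 in 5 comparisons (adjusted p = 0.0392 for week 1 over V600E and 0.0427 for week 2 off drug over V600E without the libraries that stood apart), HSPB1 at week 4 continuous over week 1 (0.0321 with the groups alone) and HSPB8 at week 3 back on drug over week 3 continuous (0.0334 without week 3 back on drug replicate 3). The cause was not tested. Every call made for CRYAB and HSPB3 held in each alternative run. The number of genes called stayed within 1.5 times its main value everywhere; leaving out each library gave 10195 to 10395 genes for week 1 over V600E and 2529 to 3169 for V600E over vector, against 11098 and 3476. Same-numbered replicates did not deviate together (r from -0.21 to 0.11, above 0.1 for every pair in 0 of 13 comparisons). That shows no pairing by number, but it cannot exclude one hidden by variation between libraries. The replicate block changed none of the 78 member calls and gave 11055 called genes for week 1 over V600E. Leaving out 1 library of week 4 continuous leaves 1, assumed to vary like the other groups. HSPB2, HSPB6 and HSPB7 are limited by counts of at most 14 per library.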
